A study of Mus musculus with 30 samples.

Results

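Collagen is the main protein of the scar that forms in a fibrotic liver, and its chains are the products of a large gene family. The 44 genes described here are the collagen chains of the mouse, taken as every gene whose symbol reads Col, a number, a and a number, out of 55450 genes in the table. They were sorted into 11 fibrillar chains, 6 basement membrane chains (type IV), 9 FACIT chains (fibril-associated collagens with interrupted triple helices) and 18 others, which hold beaded filament, short chain, multiplexin, transmembrane and anchoring fibril collagens. The rule that chose the members uses the gene symbol and no measured value.

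Whole livers of 30 mice fed a high-fat, high-cholesterol and high-fructose diet (HFCFD) were sequenced, in 3 experiments of 5 *Cebpa* fl/fl mice and 5 mice lacking *Cebpa* in hepatocytes. *Cebpa* encodes CEBPA, a transcription factor of mature hepatocytes. In HFCFD2W the mice were fed for 2 weeks and the knockout mice (*Cebpa* ΔHep) carried an albumin-driven Cre that is active from early life, with no tamoxifen in either genotype. In HFCFD8W+T10D and HFCFD12W+T10W the knockout mice (*Cebpa* ΔHep,ERT2) carried a tamoxifen-inducible Cre under the same albumin promoter, and both genotypes are labelled with tamoxifen. Tamoxifen covered the last 10 days in the former (8 weeks in the label) and the last 10 weeks in the latter (12 weeks followed by 10 weeks, 22 weeks of diet in total). All groups carried the floxed *Cebpa* alleles and all mice were bred onto C57BL/6N. The albumin-driven Cre was designed to act in hepatocytes. *Cebpa* in the other cells of the liver was not measured here. HFCFD2W used another Cre line than the tamoxifen experiments, a shorter diet and no tamoxifen. HFCFD8W+T10D and HFCFD12W+T10W shared the Cre line and differed in the length of diet and tamoxifen. The series description speaks of 3 batches, read here as the 3 experiments. These differences cannot be told apart between experiments.

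Total counts per library ranged from 7996123 to 10257347. *Cebpa* itself fell by 5.23 (HFCFD2W), 3.04 (HFCFD8W+T10D) and 2.38 (HFCFD12W+T10W) on the log2 scale, and within each experiment every knockout mouse lay below every fl/fl mouse, from 3.43 to 25.1 against 82.5 to 193 CPM. The 6 hepatocyte markers, led by albumin, summed to 46860 to 152160 CPM in every library, as a liver should show. CPM are read counts scaled to library size on 1 TMM scale (trimmed mean of M values, which sets libraries to a common level of most genes) over the 30 mice, and serve to compare 1 gene between mice. Levels of different genes were compared only in TPM, which also divides by transcript length.

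A collagen molecule is a triple helix of 3 chains, folded and hydroxylated in the endoplasmic reticulum, secreted as procollagen, trimmed at its ends and crosslinked outside the cell. Fibrillar collagens (types I, III, V, XI, XXIV and XXVII, with type II in cartilage) include those that build the banded fibers of scar. Type IV builds the sheet under epithelia and around vessels, FACITs sit on the surface of fibrils, and type VI forms beaded filaments between fibers and cells. In liver, activated hepatic stellate cells and portal fibroblasts are the main known source of fibrillar collagen, while hepatocytes are known to make the multiplexin *Col18a1*, whose end fragment is endostatin.

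For 35 of the 44 chains the RefSeq promoter table (build GRCm38.p6) held at least 1 window around the start of transcription, 38 windows in all. The stretches below lie directly before the start, do not touch any annotated exon, and are printed because they belong to chains that moved most or stood alone in the comparisons: *Col3a1*, *Col15a1* and *Col8a1*, which rose most among chains with such a stretch in HFCFD12W+T10W outside type IV, *Col5a3*, the 1 chain that fell in HFCFD2W, and the whole space between *Col4a4* and *Col4a3*, which start back to back. Each is read 5′ to 3′ on the strand of the named gene and ends 1 base before its start. Capitals mark matches on either strand to the TATA box (TATAAA), the CCAAT box (CCAAT) or the GC box (GGGCGG).
Col3a1 (chr1:45311408-45311537, plus strand): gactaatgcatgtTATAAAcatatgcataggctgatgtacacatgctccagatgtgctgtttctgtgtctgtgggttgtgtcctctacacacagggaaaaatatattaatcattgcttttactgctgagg
Col15a1 (chr4:47207882-47208011, plus strand): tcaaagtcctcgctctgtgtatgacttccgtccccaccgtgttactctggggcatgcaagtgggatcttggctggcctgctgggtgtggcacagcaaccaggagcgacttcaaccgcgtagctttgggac
Col8a1 (chr16:57754738-57754867, minus strand): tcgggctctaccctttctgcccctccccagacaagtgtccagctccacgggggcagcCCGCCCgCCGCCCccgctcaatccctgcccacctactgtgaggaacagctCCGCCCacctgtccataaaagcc
Col5a3 (chr9:20815068-20815197, minus strand): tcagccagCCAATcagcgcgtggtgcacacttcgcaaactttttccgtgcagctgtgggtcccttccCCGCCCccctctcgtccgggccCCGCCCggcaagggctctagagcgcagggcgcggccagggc
Col4a4 (chr1:82586850-82586920, minus strand, up to the start of Col4a3): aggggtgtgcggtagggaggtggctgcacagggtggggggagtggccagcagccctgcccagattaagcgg

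The 250 bases before the start were searched in all 32851 windows of that table. A GC box was found in 22 of the 38 collagen windows (57.9%) against 32.7% of all windows, a CCAAT box in 13 (34.2%) against 33.9%, and a TATA box in 5 (13.2%) against 12.4%. The pattern TTGCNNAA, a form of the site bound by the C/EBP family, was searched on either strand. It was found in 3 collagen windows (7.89%) against 9.56% of all windows, those of *Col13a1*, *Col4a6* and *Col6a2*. These are letter matches in short windows and describe the sequence only. The 9 chains with no window were *Col1a1*, *Col2a1*, *Col4a3*, *Col5a2*, *Col9a3*, *Col12a1*, *Col14a1*, *Col22a1* and *Col26a1*.

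By mean TPM over the 30 mice, *Col18a1* stood first of the 44 chains at 214.8, followed by *Col3a1* at 46.6, *Col14a1* at 25.1, *Col4a1* at 24.4, *Col1a2* at 19.8, *Col1a1* at 12.9, *Col6a3* at 11.5 and *Col4a2* at 11.4. *Col10a1*, *Col19a1* and *Col26a1* had no count in any mouse. *Col10a1* is the collagen of growth plate cartilage. A further 17 chains were too low for a genotype test in each experiment, of which *Col6a6* entered the joint fit of all mice. The low-count filter left 18 chains to test in HFCFD2W. It left 20 for HFCFD8W+T10D and 24 for HFCFD12W+T10W, with 18 of them common to the 3 experiments. *Col4a3*, *Col4a6*, *Col8a1* and *Col23a1* were tested in HFCFD12W+T10W alone.

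All chains together made up 0.0272% ± 0.00340 of TPM in HFCFD2W fl/fl mice and 0.0312% ± 0.00250 in the knockout mice (SD, n = 5 in each group). For HFCFD8W+T10D the values were 0.0296% ± 0.00460 and 0.0467% ± 0.00908. For HFCFD12W+T10W they were 0.0307% ± 0.00382 and 0.0755% ± 0.00437. In both tamoxifen experiments the lowest knockout mouse (0.0367% and 0.0701%) lay above the highest fl/fl mouse (0.0359% and 0.0347%), whereas in HFCFD2W the genotypes overlapped. Without *Col18a1* the genotypes overlapped in HFCFD8W+T10D, where the lowest knockout mouse held 0.0140% and the highest fl/fl mouse 0.0179%. They stayed apart without it in HFCFD12W+T10W (0.0471% and 0.0107%). Shares of TPM were not TMM-scaled. In HFCFD12W+T10W the make-up of the collagen pool differed between genotypes. The fibrillar chains held 8.75% ± 1.99 of collagen TPM in fl/fl mice and 37.2% ± 1.97 in knockout mice, and all chains other than *Col18a1* together held 28.8% ± 3.20 and 69.6% ± 2.95 of it. In HFCFD2W the fibrillar share was 6.74% ± 2.23 and 7.73% ± 1.40. These shares are descriptions with no test, since they sum over the chosen genes.

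**Figure D1:**
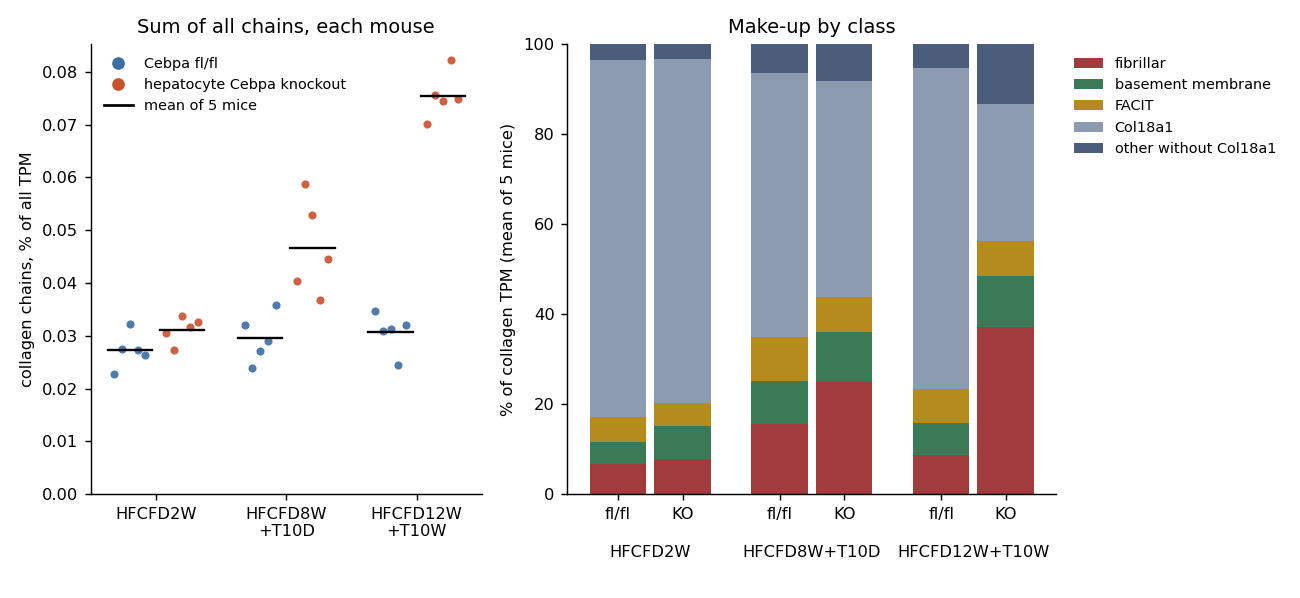
Left, the summed TPM of the 44 collagen chains as a percentage of all TPM in each mouse (points) with the mean of 5 mice (line), by experiment and genotype. Right, the mean percentage of collagen TPM in each class, with *Col18a1* drawn apart from the other chains of its class. Fibrillar chains held 8.75% in HFCFD12W+T10W fl/fl mice and 37.2% in knockout mice.

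After 10 weeks of tamoxifen (HFCFD12W+T10W), most of the collagen chains that could be tested were higher in livers lacking hepatocyte CEBPA, with members of all 4 classes among them. Of 24 chains tested, 18 were higher in knockout livers and 2 were lower at an adjusted p under 0.05 (edgeR's quasi-likelihood test, Benjamini-Hochberg adjustment over all genes tested, used for every adjusted p of a single gene below), while 27.4% of all 12463 genes tested were called higher and 23.8% lower. Past a fold of 2 as well, 17 chains were higher and 0 lower, against 14.3% and 3.47% of all genes (DESeq2 called 18 higher and 2 lower without the fold). The median log2 fold change of the chains was 2.25, and that of all genes was 0.01. Chains that entered the test through the knockout mice alone had to differ, so the counts describe the tested chains and are no evidence about the family. In whole liver, fewer cells of a type and less RNA per cell cannot be told apart. The lowest signed log2 fold changes were those of *Col27a1*, *Col18a1* and *Col23a1*.

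Markers of the cells that make collagen moved with the chains in HFCFD12W+T10W. Of 8 stellate cell markers 7 rose, and their summed level was 252.9 to 325 CPM in knockout against 134.7 to 162.1 CPM in fl/fl mice. Of 6 portal fibroblast markers 4 of 5 tested rose, with sums of 40.3 to 73.1 against 7.81 to 11.9 CPM and *Gli1* at 3 counts or fewer in every mouse. Of 4 smooth muscle and myofibroblast markers 2 of 3 tested rose (*Acta2* by 2.07 and *Tagln* by 1.835 on the log2 scale), with *Cnn1* at 3 counts or fewer in every mouse. All 6 cholangiocyte markers rose, with sums of 736 to 1036 against 41.3 to 56.5 CPM. *Cftr*, among the 6, had 3 counts or fewer in every fl/fl mouse, so it had to differ once tested. The study reports that loss of hepatocyte CEBPA raises *Spp1*, a gene also high in cholangiocytes, within hepatocytes. Which cells the cholangiocyte sum came from was not tested. Of 6 macrophage markers 5 rose, with sums of 642 to 757 against 195.6 to 517 CPM. Of the 6 hepatocyte markers 0 rose and 2 fell, with sums of 46860 to 55543 against 85701 to 106210 CPM, of 6 endothelial markers 1 rose and 2 fell, and of 5 T and B cell markers 1 of 2 tested rose. The part of these cells in the collagen differences was not tested.

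Among the fibrillar chains, 5 of 7 tested rose, 1 fell and *Col5a3* did not pass. *Col1a1*, the chain that makes up most of type I collagen, measured 22.5, 14.96, 11.3, 5.62 and 15.1 CPM in the 5 fl/fl mice and 131, 166, 158, 186 and 145 CPM in the 5 knockout mice. The groups did not overlap, and the lowest knockout mouse was more than 5-fold above the highest fl/fl mouse. Its log2 fold change was 3.55 ± 0.26 (SE, adjusted p = 4.75e-07). *Col1a2*, the partner chain of type I, measured 39.1, 26.4, 23.6, 17.3 and 30.1 CPM in fl/fl mice and 179, 200.1, 235, 243 and 191 CPM in knockout mice, a log2 fold change of 2.98 ± 0.18 (SE, adjusted p = 1.44e-07). *Col3a1*, the single chain of the type III collagen of early and reticular fibers, measured 53.7, 56.1, 39.6, 27.4 and 52.6 CPM in fl/fl mice and 399, 441, 467, 557 and 478 CPM in knockout mice, a log2 fold change of 3.39 ± 0.18 (SE, adjusted p = 5.61e-08). For both genes the 2 genotypes again lay far apart, with no shared range.

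The type V chains, which seed type I fibrils and set their diameter, did not move as 1 unit. *Col5a2* rose by 3.18 ± 0.16 (SE, adjusted p = 4.31e-08) and *Col5a1* by 2.36 ± 0.17 (SE, adjusted p = 6e-07) on the log2 scale. *Col5a3*, a rarer chain of type V, had a log2 fold change of 0.50 ± 0.24 (SE, adjusted p = 0.0928), with 1.41 to 3.09 CPM in fl/fl and 2.22 to 3.38 CPM in knockout mice, which overlapped. *Col27a1*, a fibrillar chain known from cartilage, fell, with 10.8, 8.16, 9.19, 5.40 and 11.7 CPM in fl/fl mice, 4.71, 5.91, 5.40, 4.38 and 6.80 CPM in knockout mice and a log2 fold change of -0.69 ± 0.20 (SE, adjusted p = 0.0105). Fl/fl replicate 4 was as low as the knockout mice, so the ranges overlapped. The fall lost its call with libraries set to their total count.

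All 6 basement membrane chains rose in HFCFD12W+T10W. *Col4a1* and *Col4a2* make up the common type IV molecule and are read from overlapping starts on opposite strands of chromosome 8, with the first 22 bases shared. *Col4a1* measured 53.1, 47.2, 54.2, 37.2 and 67.0 CPM in fl/fl mice and 161, 178, 164, 183 and 169 CPM in knockout mice. *Col4a2* measured 38.0, 30.02, 29.5, 20.9 and 32.7 CPM and 102, 102, 91.3, 110.3 and 94.0 CPM. Neither gene overlapped between genotypes, and their log2 fold changes were 1.77 ± 0.13 (SE, adjusted p = 4.42e-07) and 1.77 ± 0.13 (SE, adjusted p = 4.42e-07).

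The other type IV chains, the minor chains of kidney and other specialised basement membranes, were low in fl/fl livers. *Col4a3* and *Col4a6* passed the low-count filter in this experiment alone, through knockout mice in which they were high, so they had to differ and their fold changes are given without a p. *Col4a3* had 0, 4, 1, 1 and 3 counts in the fl/fl libraries and 26, 36, 43, 35 and 46 counts in the knockout libraries, and a log2 fold change of 3.96 ± 0.39 (SE). *Col4a4* measured 0.475, 0.566, 0.230, 0.459 and 0.808 CPM in fl/fl mice and 2.44, 2.12, 5.74, 4.10 and 3.56 CPM in knockout mice, a log2 fold change of 2.82 ± 0.36 (SE). Its fl/fl libraries held 4, 5, 2, 4 and 8 counts. It too passed the filter here through the knockout mice, so no p is given. *Col4a3* and *Col4a4* start 71 bases apart on opposite strands of chromosome 1, in the stretch printed above. The other head-to-head pair is on the X chromosome, 1308 bases apart: *Col4a5* changed by 2.74 ± 0.27 (SE, adjusted p = 5.62e-06) and *Col4a6* had 1, 4, 1, 1 and 2 counts in fl/fl and 21, 20, 40, 16 and 25 in knockout libraries, a log2 fold change of 3.35 ± 0.40 (SE). Library preparation kept strand, so reads of these neighbours are told apart by strand where the counting used it.

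**Figure D2:**
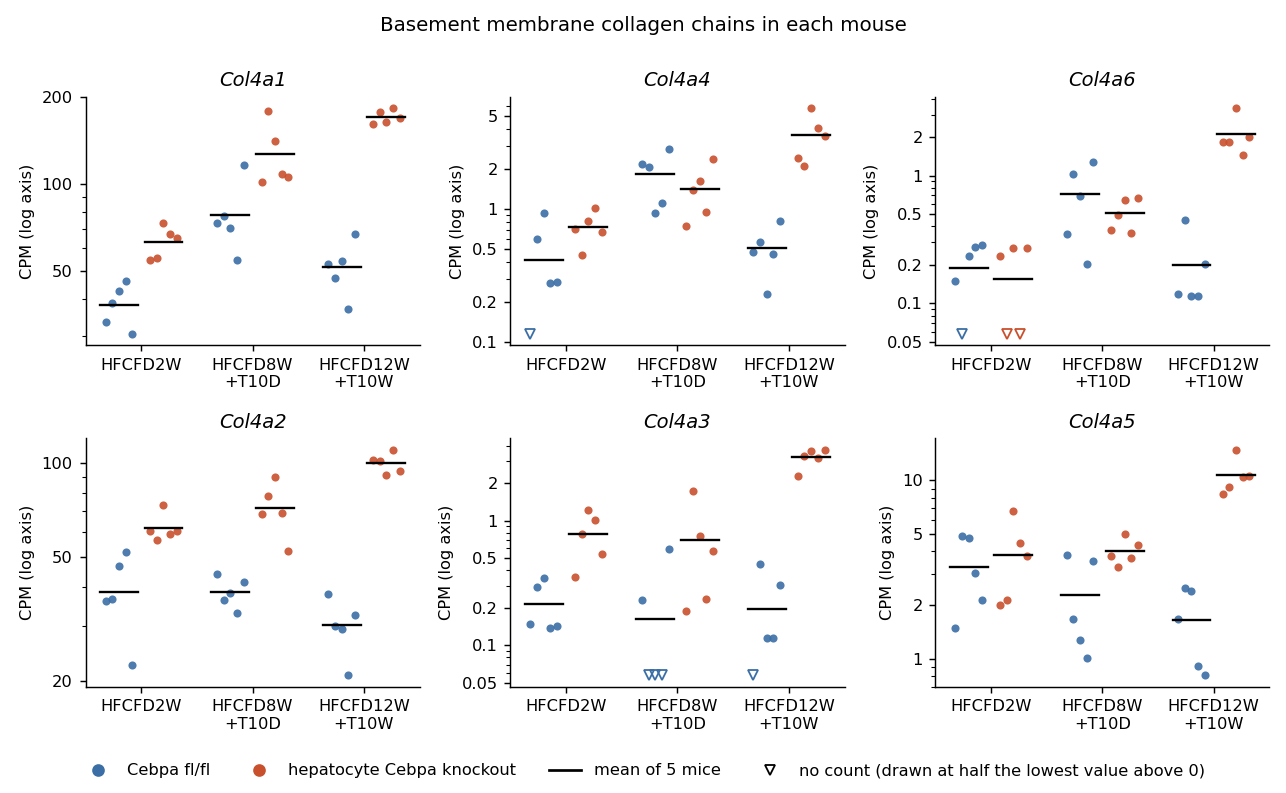
CPM on a log axis (TMM-scaled) of the 6 type IV chains in each of 30 mice (points; open triangles for libraries with no count) with the mean of 5 mice (line), and with head-to-head partners one above the other. In HFCFD12W+T10W the knockout mice lie above all fl/fl mice in every panel.

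The FACIT chains had smaller fold changes, and 2 of 3 tested rose. *Col14a1*, which binds fibrils of type I, measured 54.9, 66.8, 70.4, 51.9 and 84.4 CPM in fl/fl mice and 132, 117, 95.5, 155 and 115 CPM in knockout mice, a log2 fold change of 0.94 ± 0.15 (SE, adjusted p = 0.000179). *Col16a1*, a minor fibril-associated chain, measured 6.89, 7.59, 6.09, 4.13 and 7.47 CPM and 15.6, 16.8, 19.002, 18.3 and 15.6 CPM, a log2 fold change of 1.45 ± 0.14 (SE, adjusted p = 4.81e-06). Both separated the genotypes completely. *Col12a1*, the third FACIT tested, had a log2 fold change of 0.55 ± 0.25 (SE, adjusted p = 0.0831).

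Of the other chains 8 were tested, of which 5 rose and 1 fell. *Col6a3*, the large chain of type VI beaded filaments, measured 18.2, 16.8, 23.2, 9.64 and 22.8 CPM in fl/fl mice and 97.7, 93.3, 99.4, 131 and 115 CPM in knockout mice, with no overlap and a log2 fold change of 2.61 ± 0.19 (SE, adjusted p = 5.88e-07). Its partners *Col6a2* and *Col6a1* changed by 2.13 ± 0.15 (SE, adjusted p = 4.56e-07) and 2.05 ± 0.13 (SE, adjusted p = 2.98e-07). *Col15a1*, a multiplexin of vascular and pericellular basement membranes, measured 4.04, 3.63, 1.72, 1.837 and 1.92 CPM and 22.8, 32.6, 33.4, 32.3 and 25.1 CPM, a log2 fold change of 3.52 ± 0.22 (SE, adjusted p = 1.65e-07). *Col8a1*, a short chain network collagen of vessel walls, had 1, 6, 2, 1 and 2 counts in fl/fl libraries and 31, 33, 36, 44 and 50 in knockout libraries, a log2 fold change of 3.63 ± 0.35 (SE), given without a p for the same reason. The transmembrane collagens *Col13a1* and *Col23a1* had log2 fold changes of 0.36 ± 0.22 (SE, adjusted p = 0.198) and 0.22 ± 0.36 (SE, adjusted p = 0.631).

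*Col18a1*, the most abundant chain, went the other way in the same livers. It measured 994, 821, 925, 738 and 816 CPM in fl/fl mice and 694, 721, 669, 755 and 553 CPM in knockout mice, with knockout replicate 4 inside the range of the fl/fl mice and the other 4 below it, and a log2 fold change of -0.30 ± 0.11 (SE, adjusted p = 0.0322). The fall lost its call when fl/fl replicate 1 or 3 or knockout replicate 3 or 5 was left out (highest adjusted p = 0.0701). Scaling moved it too: with libraries set to their total count, the median of all genes was 0.38 on the log2 scale in this experiment, *Col18a1* was at 0.07, and 21 chains were called higher and 0 lower in place of 18 and 2 (edgeR, with 21 chains at an unadjusted p under 0.05 under either scaling).

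**Figure D3:**
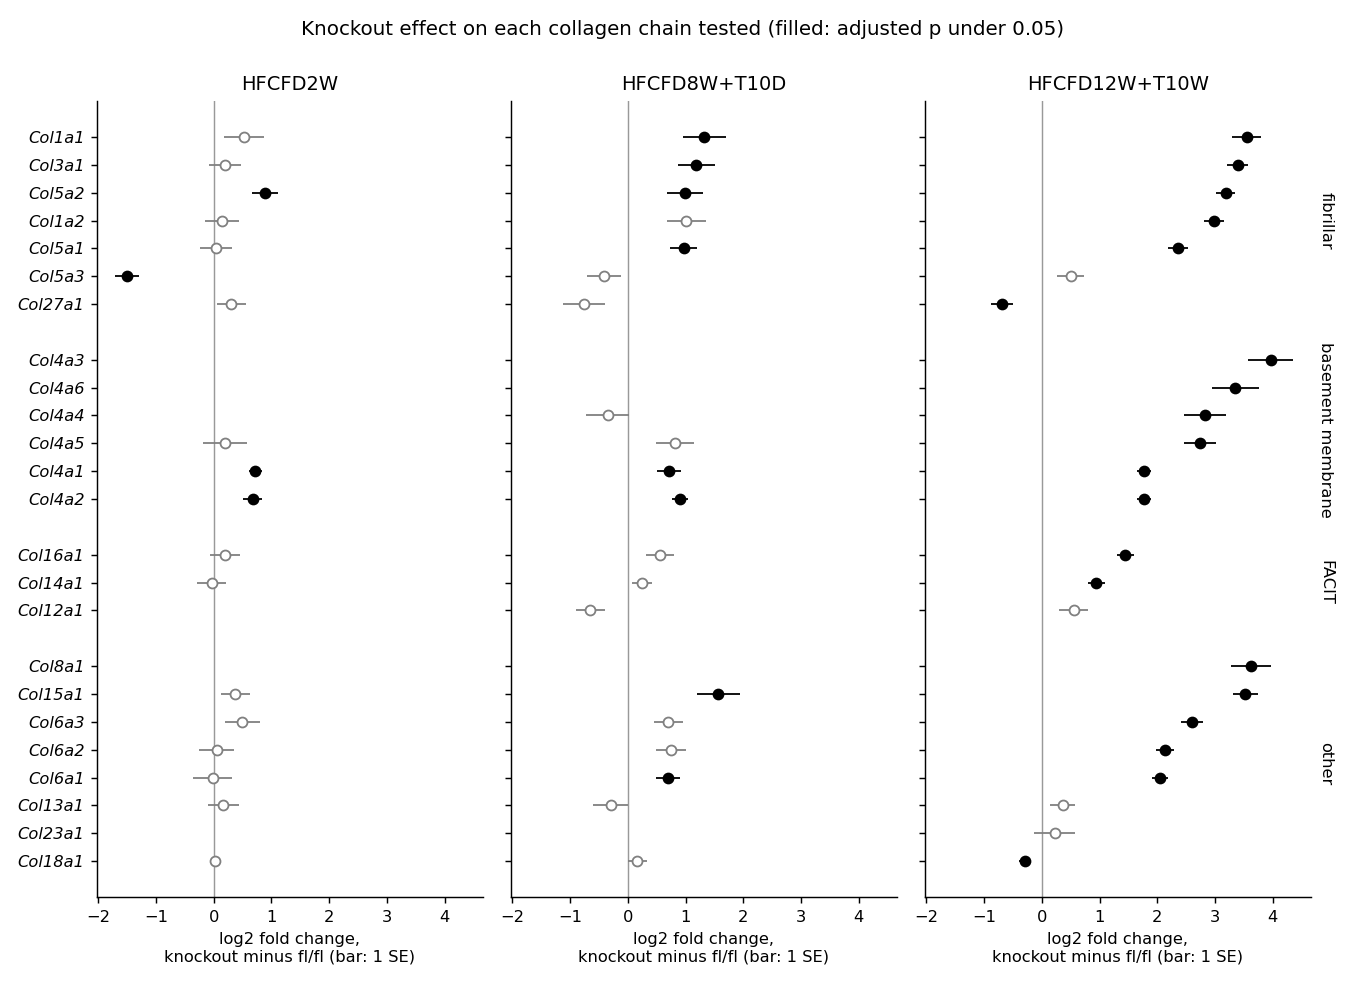
Log2 fold change, knockout minus fl/fl, with 1 SE, of each collagen chain tested in the 3 experiments, grouped by class. Filled points passed an adjusted p of 0.05. Of 24 chains in HFCFD12W+T10W 18 lie to the right as filled points, with *Col27a1* and *Col18a1* filled on the left.

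After 10 days of tamoxifen (HFCFD8W+T10D) 4 of 7 fibrillar chains and 2 of 4 type IV chains were higher in knockout livers, and of these 6 calls only those of *Col5a1* and *Col4a2* stood whichever mouse was left out. Of 20 chains tested 8 were higher in knockout livers and 0 lower, while 10.3% of all 11990 genes tested were called higher and 6.85% lower. At an unadjusted p under 0.05, 14 of the 20 chains passed, and DESeq2 called 10 higher and 0 lower. Past a fold of 2 as well, 3 were higher and 0 lower, against 4.09% and 2.01% of all genes. The median log2 fold change of the chains was 0.70 against 0.01 for all genes. The 8 were 4 fibrillar chains (*Col1a1*, *Col3a1*, *Col5a1* and *Col5a2*), both main type IV chains, *Col15a1* and *Col6a1*.

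Fewer marker genes moved with the chains at this time. Of 8 stellate cell markers 0 passed (edgeR, with 1 at an unadjusted p under 0.05), and their sum was 165.1 to 244 CPM in knockout and 155.0 to 191.7 CPM in fl/fl mice. Of 3 smooth muscle and myofibroblast markers tested 0 passed, and 0 had an unadjusted p under 0.05. Of 5 portal fibroblast markers 2 rose, of 5 cholangiocyte markers 3 rose and of 6 macrophage markers 5 rose, the last with sums of 614 to 1159 against 407 to 658 CPM. Of 6 hepatocyte markers 3 fell and of 6 endothelial markers 1 fell, and of 2 T and B cell markers 0 passed (0 with an unadjusted p under 0.05). The part of these cells in the collagen differences was not tested.

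*Col15a1* changed most, with 5.21, 4.66, 3.36, 1.93 and 2.75 CPM in fl/fl mice, 14.7, 15.5, 11.6, 4.27 and 5.60 CPM in knockout mice and a log2 fold change of 1.57 ± 0.37 (SE, adjusted p = 0.0132). Knockout replicates 4 and 5 were the low ones, and replicate 4 lay within the range of the fl/fl mice. *Col1a1* measured 48.7, 43.7, 16.5, 17.5 and 42.5 CPM in fl/fl mice and 60.2, 97.3, 151, 65.5 and 44.5 CPM in knockout mice, a log2 fold change of 1.33 ± 0.37 (SE, adjusted p = 0.0257). *Col3a1* measured 144, 125, 68.0, 60.0 and 139 CPM and 179, 342, 374, 150.4 and 157 CPM, a log2 fold change of 1.18 ± 0.32 (SE, adjusted p = 0.0234), and its genotypes did not overlap. *Col1a2* measured 73.7, 69.0, 33.5, 26.3 and 65.7 CPM and 79.7, 118, 189.9, 84.2 and 63.9 CPM, and its log2 fold change of 1.016 ± 0.33 (SE, adjusted p = 0.0512) missed the threshold. In these 3 genes fl/fl replicates 3 and 4 were the lowest fl/fl mice, and knockout replicates 2 and 3 the highest knockout mice.

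The calls of this experiment rested on few mice. Leaving out knockout replicate 2, knockout replicate 3, fl/fl replicate 3 or fl/fl replicate 4 left 3 chains higher in place of 8, and leaving out knockout replicate 4 gave 11. *Col15a1*, *Col5a1* and *Col4a2* passed in all 10 fits without 1 mouse, *Col1a1* and *Col3a1* in 6, *Col6a1* in 5, and *Col5a2* and *Col4a1* in 4. All of these fits gave *Col1a1* a log2 fold change between 1.00 and 1.49.

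Of the type IV chains, *Col4a2* had the firmest difference of this experiment, with 44.2, 36.4, 38.4, 33.0 and 41.7 CPM in fl/fl mice, 68.7, 78.3, 90.2, 68.9 and 52.4 CPM in knockout mice, no overlap and a log2 fold change of 0.90 ± 0.14 (SE, adjusted p = 0.000981). *Col4a1* measured 73.7, 77.6, 70.6, 54.7 and 116 CPM and 102, 179, 141, 108 and 106 CPM, a log2 fold change of 0.71 ± 0.21 (SE, adjusted p = 0.0312), with fl/fl replicate 5 above 3 of the knockout mice. *Col4a5* and *Col4a4* had log2 fold changes of 0.82 ± 0.33 (SE, adjusted p = 0.108) and -0.35 ± 0.37 (SE, adjusted p = 0.577).

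No FACIT chain passed in HFCFD8W+T10D. *Col14a1* measured 110.3, 87.3, 74.6, 64.2 and 109 CPM in fl/fl mice and 79.8, 116, 138, 97.1 and 91.6 CPM in knockout mice, a log2 fold change of 0.25 ± 0.18 (SE, adjusted p = 0.386). *Col16a1* measured 8.34, 8.02, 5.10, 4.37 and 7.38 CPM and 7.59, 12.6, 13.3, 6.998 and 7.41 CPM, a log2 fold change of 0.55 ± 0.24 (SE, adjusted p = 0.141). In both the genotypes overlapped. The lowest signed log2 fold changes of the 20 chains were those of *Col27a1* at -0.76 ± 0.36 (SE, adjusted p = 0.171), *Col12a1* at -0.65 ± 0.25 (SE, adjusted p = 0.0941) and *Col5a3* at -0.41 ± 0.30 (SE, adjusted p = 0.383).

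Among the other chains of this experiment, the type VI partners *Col6a1*, *Col6a2* and *Col6a3* had log2 fold changes of 0.70 ± 0.21 (SE, adjusted p = 0.0405), 0.75 ± 0.26 (SE, adjusted p = 0.0666) and 0.70 ± 0.25 (SE, adjusted p = 0.0759), so that 1 of the 3 passed. *Col6a3* measured 30.2, 28.2, 14.7, 14.9 and 27.9 CPM in fl/fl mice and 28.9, 46.8, 53.2, 26.5 and 30.5 CPM in knockout mice. *Col18a1* measured 785, 669, 689, 817 and 729.9 CPM and 766, 581, 855, 1129 and 776 CPM, a log2 fold change of 0.17 ± 0.16 (SE, adjusted p = 0.534), with the knockout mice spread over both sides of the fl/fl mice.

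At 2 weeks of diet (HFCFD2W), the type I and III chains overlapped between genotypes, and *Col4a1* and *Col4a2* did not overlap. Of 18 chains tested 3 were higher in *Cebpa* ΔHep livers and 1 was lower, while 8.6% of all 11068 genes tested were called higher and 8.09% lower. Past a fold of 2 as well, 0 chains were higher and 1 lower (edgeR), against 1.69% and 1.38% of all genes. The higher chains were *Col4a1*, *Col4a2* and *Col5a2*, and the lower chain was *Col5a3*. In the same livers 1 of 8 stellate cell, 1 of 4 portal fibroblast, 1 of 2 cholangiocyte and 3 of 5 macrophage markers rose, 1 of 6 hepatocyte markers fell, and 0 of 6 endothelial, 0 of 2 smooth muscle and 0 of 1 T and B cell markers passed (edgeR, with 1, 0 and 0 at an unadjusted p under 0.05). The sum of the 6 cholangiocyte markers was 376 to 662 CPM in knockout and 33.8 to 76.4 CPM in fl/fl mice, though only 2 of them were tested. The study reports *Spp1*, a gene also high in cholangiocytes, as mostly induced in hepatocytes of such knockout livers. Which cells the cholangiocyte sum came from was not tested. The macrophage sum was 143.1 to 238 CPM in knockout and 117.9 to 152.4 CPM in fl/fl mice. The part of all these cells in the collagen differences was not tested.

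*Col4a1* measured 33.4, 38.9, 42.8, 46.2 and 30.4 CPM in fl/fl mice and 54.5, 55.7, 73.5, 67.3 and 65.3 CPM in knockout mice, with a log2 fold change of 0.72 ± 0.12 (SE, adjusted p = 0.00123). *Col4a2* measured 36.1, 36.8, 46.6, 51.7 and 22.6 CPM and 60.3, 56.7, 73.3, 59.2 and 60.7 CPM, with a log2 fold change of 0.68 ± 0.17 (SE, adjusted p = 0.0149). Every knockout mouse lay above every fl/fl mouse for both genes. *Col5a2* was the third chain that was higher, with 2.37, 3.86, 2.56, 4.28 and 2.55 CPM in fl/fl mice, 6.86, 3.82, 5.41, 5.62 and 7.25 CPM in knockout mice, 1 knockout mouse inside the fl/fl range, and a log2 fold change of 0.89 ± 0.22 (SE, adjusted p = 0.0164). It was not called in the joint fit of all 30 mice, in which 2 chains were higher in this experiment. With replicate number as a block, neither *Col5a2* nor *Col4a2* was called.

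*Col5a3* fell in HFCFD2W livers, the only chain to do so. It measured 5.34, 7.57, 6.53, 5.24 and 6.53 CPM in fl/fl mice and 1.77, 1.57, 3.38, 2.43 and 1.88 CPM in knockout mice, with no overlap. Its log2 fold change was -1.51 ± 0.21 (SE, adjusted p = 0.000418), the only change of the 18 chains beyond 2-fold, and it passed in every fit with 1 mouse left out. The fl/fl mice of the other experiments measured 1.62 to 3.59 and 1.41 to 3.09 CPM, below all fl/fl mice of this experiment. Batch, Cre line, diet length and tamoxifen differ between the experiments, so which genotype departed from its usual level cannot be told.

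The type I and III chains were low in HFCFD2W, and the spread between mice was as large as the difference between genotypes. *Col1a1* measured 4.75, 17.96, 11.1, 19.6 and 10.8 CPM in fl/fl mice and 19.5, 7.63, 29.3, 17.4 and 18.7 CPM in knockout mice, a log2 fold change of 0.52 ± 0.34 (SE, adjusted p = 0.33). *Col1a2* measured 10.54, 31.9, 20.9, 36.8 and 20.7 CPM and 26.1, 13.6, 40.3, 27.2 and 26.3 CPM, a log2 fold change of 0.14 ± 0.30 (SE, adjusted p = 0.792). *Col3a1* measured 23.004, 62.8, 49.2, 66.6 and 41.4 CPM and 58.5, 26.8, 76.8, 60.3 and 55.9 CPM, a log2 fold change of 0.19 ± 0.27 (SE, adjusted p = 0.68). In each gene fl/fl replicate 1 and knockout replicate 3 were the lowest mice of their genotype, and the ranges of the genotypes overlapped.

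*Col14a1*, *Col16a1*, *Col6a3* and *Col18a1* also overlapped between the genotypes at 2 weeks. *Col14a1* measured 33.8, 65.9, 76.7, 70.4 and 55.6 CPM in fl/fl mice and 48.9, 30.4, 66.6, 84.6 and 64.9 CPM in knockout mice (log2 fold change -0.04). *Col16a1* measured 2.08, 3.41, 2.91, 2.62 and 1.70 CPM and 2.25, 2.36, 2.16, 4.34 and 3.49 CPM (log2 fold change 0.19). Neither passed, with adjusted p of 0.941 and 0.664. *Col6a3* measured 2.97, 10.98, 7.46, 10.9 and 6.10 CPM and 11.004, 5.05, 11.8, 13.5 and 13.2 CPM (log2 fold change 0.50, adjusted p = 0.298). *Col18a1* measured 1021, 1147, 1147, 1103 and 1103 CPM and 1037, 998, 1236, 1073 and 1254 CPM (log2 fold change 0.02), and *Col6a1* had a log2 fold change of -0.02.

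**Figure D4:**
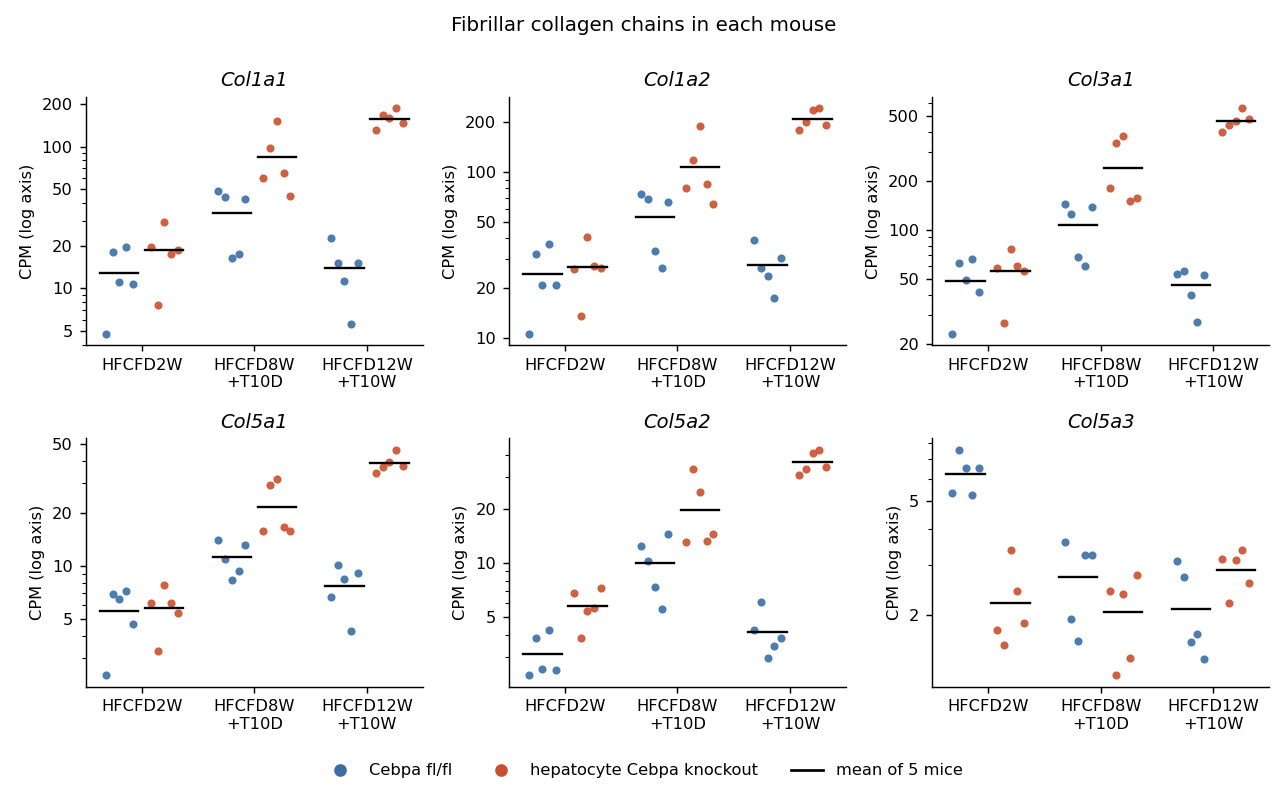
CPM on a log axis (TMM-scaled) of 6 fibrillar chains in each of 30 mice (points) with the mean of 5 mice (line), by experiment and genotype. *Col1a1* knockout mice lie between 131 and 186 CPM in HFCFD12W+T10W, above all fl/fl mice, whereas *Col5a3* knockout mice lie below all fl/fl mice in HFCFD2W.

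Whether the knockout difference itself differed between experiments was tested in 1 fit of all 30 mice. The difference was larger in HFCFD12W+T10W than in HFCFD8W+T10D for 16 of 25 chains and smaller for 0, while 4.97% of all 12964 genes were called larger and 5.49% smaller. It was larger in HFCFD12W+T10W than in HFCFD2W for 19 chains and smaller for 0, while 13.4% of all genes were called larger and 17.3% smaller. The 2 counts share the HFCFD12W+T10W mice. Each knockout difference also rests on its fl/fl mice. Several chains were lower in fl/fl mice of HFCFD12W+T10W than in those of HFCFD8W+T10D. The log2 differences were -1.28 for *Col1a1*, -1.22 for *Col3a1* and -0.60 for *Col4a1*. For these genes part of the larger knockout difference against HFCFD8W+T10D thus lay in lower fl/fl levels. *Col4a3*, *Col4a6* and *Col8a1* passed the low-count filter of this fit only with the HFCFD12W+T10W knockout mice, in which they were high. *Col4a6* and *Col8a1* are in both counts, and their calls are no evidence of a difference. The counts describe the tested chains and are no evidence about the family. For *Col1a1* the difference between experiments was 2.19 ± 0.50 (SE) against HFCFD8W+T10D and 2.98 ± 0.54 (SE) against HFCFD2W, for *Col3a1* 2.18 ± 0.42 (SE) and 3.16 ± 0.43 (SE), and for *Col4a1* 1.03 ± 0.24 (SE) and 1.004 ± 0.24 (SE), all on the log2 scale and all past the threshold. *Col4a3*, in spite of its high fold change, did not pass, at 1.96 ± 1.03 (SE, adjusted p = 0.243) and 2.15 ± 1.04 (SE, adjusted p = 0.116). For *Col18a1* the values were -0.49 ± 0.17 (SE, adjusted p = 0.0659) and -0.36 ± 0.17 (SE, adjusted p = 0.117).

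Between HFCFD8W+T10D and HFCFD2W the knockout difference differed for 1 chain, *Col5a3*, at 1.08 ± 0.36 (SE, adjusted p = 0.0496), while 4.45% of all genes were called larger and 6.79% smaller. The call stood in 7 of 30 fits without 1 mouse and was lost with no low-count filter, when 0 chains passed (edgeR, with 9 at an unadjusted p under 0.05, while DESeq2 called 1 with the filter). *Col1a1*, called in HFCFD8W+T10D and not in HFCFD2W, had a difference between them of 0.79 ± 0.52 (SE, adjusted p = 0.361). The values were 0.97 ± 0.42 (SE, adjusted p = 0.135) for *Col3a1* and 1.19 ± 0.46 (SE, adjusted p = 0.0901) for *Col15a1*, so a difference between these experiments was not shown for the 3 genes.

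Single chains differed between the control livers of the experiments. The mean share of all chains together in TPM ran from 0.0272% to 0.0307% in the 3 fl/fl groups, but this narrow range held only with *Col18a1* included. Without *Col18a1* the mean fl/fl share was lowest at 2 weeks of diet, at 0.00570% ± 0.00163 (SD, n = 5). It was 0.0124% ± 0.00371 with 10 days of tamoxifen and 0.00890% ± 0.00180 with 10 weeks of it. These shares were not tested. From HFCFD2W to HFCFD8W+T10D fl/fl mice, 13 of 25 chains were higher and 2 were lower, while 22.2% of all genes were called higher and 21.5% lower. *Col1a1* went from 12.8 ± 6.01 to 33.8 ± 15.5 CPM (SD, n = 5 in each group here and below), a log2 difference of 1.39 ± 0.38 (SE, adjusted p = 0.00416). *Col3a1* went from 48.6 ± 17.6 to 107 ± 40.2 CPM, a log2 difference of 1.14 ± 0.30 (SE, adjusted p = 0.00303), and *Col6a3* from 7.68 ± 3.39 to 23.2 ± 7.70 CPM, a log2 difference of 1.59 ± 0.30 (SE, adjusted p = 9.62e-05). *Col5a3* and *Col18a1* were the 2 lower chains, at -1.18 ± 0.24 (SE, adjusted p = 0.000246) and -0.58 ± 0.12 (SE, adjusted p = 0.000385). The summed level of 6 macrophage markers went from 117.9 to 152.4 CPM in the former mice to 407 to 658 CPM in the latter, and its part in these differences was not tested.

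From HFCFD8W+T10D to HFCFD12W+T10W fl/fl mice, 0 chains were higher and 7 were lower (edgeR, with 11 at an unadjusted p under 0.05, while DESeq2 also called 0 and 7), while 6.31% of all genes were called higher and 5.12% lower. The 7 were *Col1a1*, *Col1a2*, *Col3a1*, *Col5a2*, *Col4a1*, *Col4a4* and *Col4a6*. *Col1a1* measured 13.9 ± 6.15 CPM in the later fl/fl mice, a log2 difference of -1.28 ± 0.37 (SE, adjusted p = 0.024), and *Col3a1* measured 45.9 ± 12.1 CPM, a log2 difference of -1.22 ± 0.30 (SE, adjusted p = 0.00718). Leaving out HFCFD8W+T10D fl/fl replicate 5 or HFCFD12W+T10W fl/fl replicate 4 left 3 chains lower, and leaving out HFCFD8W+T10D fl/fl replicate 2 or HFCFD12W+T10W fl/fl replicate 3 left 4. With libraries set to their total count *Col1a2* and *Col4a1* lost the call, and with no low-count filter *Col4a6* did. The fl/fl mice with the longest diet were not those with the highest *Col1a1* and *Col3a1* mRNA. The macrophage sum of these mice was 195.6 to 517 CPM, against 407 to 658 CPM in HFCFD8W+T10D, and its part was not tested.

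Chains of 1 molecule or fibril did not always keep their ratio. The TPM ratios of 4 pairs were compared in 3 experiments by 12 exact two-sided permutation tests over all arrangements of 5 against 5 mice. Adjustment was by Benjamini-Hochberg over the 12, and the smallest p such a test can give is 0.00794. The ratio of *Col1a2* to *Col1a1*, the 2 chains of type I collagen, was lower in knockout livers of every experiment. It was 2.11 (range 1.97 to 2.26) in fl/fl and 1.67 (1.49 to 1.98) in knockout mice of HFCFD2W (adjusted exact permutation p = 0.0476). It was 1.82 (1.68 to 2.27) and 1.46 (1.35 to 1.64) in HFCFD8W+T10D (adjusted exact permutation p = 0.0317). It was 2.35 (1.94 to 3.45) and 1.47 (1.35 to 1.57) in HFCFD12W+T10W (adjusted exact permutation p = 0.0317). The values are geometric means over 5 mice. In HFCFD2W, where neither chain passed alone, 1 knockout mouse lay above the lowest fl/fl mouse.

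The ratio of *Col3a1* to *Col1a1* was 4.90 (4.30 to 5.94) in fl/fl and 3.46 (2.83 to 4.18) in knockout mice of HFCFD12W+T10W (adjusted exact permutation p = 0.0317), and overlapped in HFCFD2W (adjusted exact permutation p = 0.779) and HFCFD8W+T10D (adjusted exact permutation p = 0.688). Read as a ratio of CPM, without the length of each transcript, that of *Col3a1* in HFCFD12W+T10W no longer passed (adjusted exact permutation p = 0.514), nor did that of *Col1a2* in HFCFD2W (adjusted exact permutation p = 0.0635). The ratios of *Col4a2* to *Col4a1* and of *Col6a2* to *Col6a1* did not pass in any experiment, with log2 differences of -0.07 ± 0.17 to 0.29 ± 0.23 and of 0.01 ± 0.11 to 0.14 ± 0.14 (SE). *Col4a2* to *Col4a1* was 0.836 in fl/fl mice of HFCFD2W, 0.351 in those of HFCFD8W+T10D and 0.388 in those of HFCFD12W+T10W. Between the fl/fl mice of the first 2 experiments *Col4a1* differed by 1.03 ± 0.17 (SE, adjusted p = 2.28e-05) and *Col4a2* by 0.00 ± 0.16 (SE, adjusted p = 0.987) on the log2 scale. The difference between the 2 chains was not tested.

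**Figure D5:**
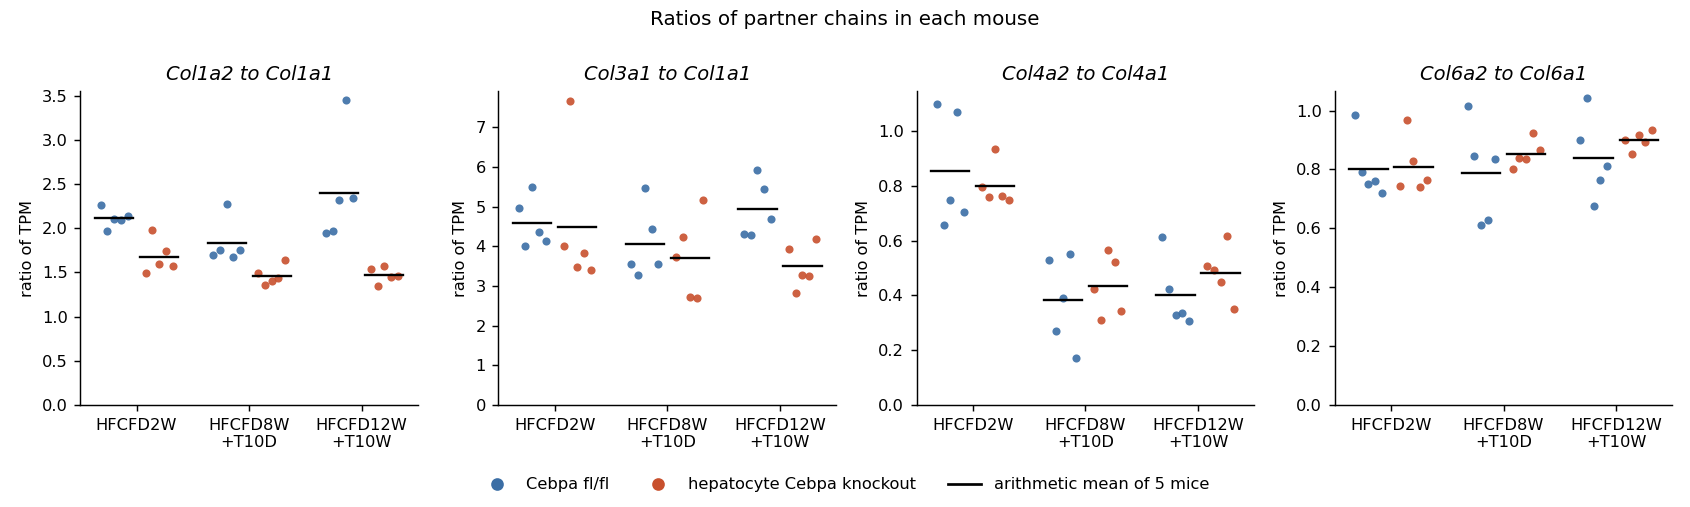
Ratio of TPM of 4 pairs of chains in each mouse (points) with the arithmetic mean of 5 mice (line), by experiment and genotype, on axes from 0. The *Col1a2* to *Col1a1* ratio lies between 1.35 and 1.57 in HFCFD12W+T10W knockout mice, below all fl/fl mice (1.94 to 3.45).

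Chains too low for the test were read as counts summed over the 5 mice of a group, with exact 95% (Clopper-Pearson) intervals on the ratio per library size that cover counting error only. *Col4a3* had 8 counts in fl/fl and 31 in knockout mice of HFCFD2W, a ratio of 3.52 (1.58 to 8.86), and 8 and 38 in HFCFD8W+T10D, a ratio of 4.19 (1.93 to 10.4), with 21 of the 38 in 1 mouse and a ratio of 2.46 without it. Its head-to-head partner *Col4a4* had 16 and 29 counts in HFCFD2W, a ratio of 1.65 (0.865 to 3.24). *Col8a1* had 21 and 55 counts in HFCFD8W+T10D, a ratio of 2.31 (1.37 to 4.02). *Col12a1* had 63 and 43 in HFCFD2W, a ratio of 0.620 (0.410 to 0.928). These intervals leave out the spread between mice. Ratios without 1 mouse were an alternative chosen after seeing the data.

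In HFCFD12W+T10W some chains that were near 0 in fl/fl livers were counted in the knockout livers. *Col9a3*, a FACIT of cartilage, had 2 counts in fl/fl mice and 36 in knockout mice, in all 5 of them, a ratio of 13.96 (3.59 to 119.7). *Col6a5*, a type VI chain, had 3 and 79 counts, but 54 of the 79 came from 1 mouse, a ratio of 20.4 (6.74 to 101.2) and of 8.14 without it. *Col28a1* had 0 counts in fl/fl mice, which allows up to 0.0673 CPM over the group, and 12 in knockout mice from 2 mice, at least 3.10-fold higher and at least 1.303-fold higher without the mouse that held 8 of the 12. *Col22a1*, a FACIT of tissue junctions, had 0 and 7 counts, at least 1.81-fold higher. *Col7a1*, the anchoring fibril chain of skin, had 3 and 14 counts, a ratio of 3.62 (1.0102 to 19.6), with 8 of the 14 in 1 mouse and a ratio of 1.95 without it. *Col6a6* had 25 and 60 counts, a ratio of 1.86 (1.15 to 3.10), with 27 of the 60 in 1 mouse and a ratio of 1.29 without it, and *Col6a4* 49 and 46, a ratio of 0.728 (0.476 to 1.11). The cartilage chains *Col2a1* and *Col11a1* had no more than 3 counts in any group, so no fold is given.

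Other low chains showed no fold that the counts could place on 1 side in HFCFD12W+T10W. *Col8a2*, *Col9a1*, *Col11a2*, *Col20a1*, *Col24a1* and *Col25a1* had ratios of 1.78, 2.71, 1.75, 0.905, 0.724 and 0.388, each with an interval across 1. *Col25a1*, a transmembrane chain, had 1 and 13 counts in HFCFD8W+T10D, a ratio of 11.5 (1.72 to 487), but 18 and 31 in HFCFD2W, a ratio of 1.56 (0.848 to 2.97), and *Col28a1* had 2 and 12 in HFCFD8W+T10D, a ratio of 5.29 (1.18 to 48.7), of which 6 came from 1 mouse, with a ratio of 3.17 without it. *Col20a1* had 0 and 5 counts in HFCFD2W, at least 1.51-fold higher. All other ratios of untested chains in HFCFD2W and HFCFD8W+T10D had intervals across 1 or too few counts for a fold. *Col9a2* and *Col17a1* had no more than 3 counts in each group.

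The machinery that makes and assembles collagen was read from 3 further lists. Of 11 genes of procollagen processing and crosslinking, 8 of 10 tested rose in HFCFD12W+T10W, 2 of 9 in HFCFD8W+T10D and 0 of 5 in HFCFD2W, and 0 fell, while 27.4%, 10.3% and 8.6% of all genes in these experiments were called higher (edgeR, with 0 of the 5 at an unadjusted p under 0.05 in HFCFD2W). *Lox*, a lysyl oxidase that crosslinks fibrils, had 3 counts or fewer in every fl/fl mouse of HFCFD12W+T10W. It passed the low-count filter through the knockout mice, so it had to differ. Its log2 fold change of 4.83 ± 0.47 (SE) is given without a p, and its call among the 8 is no evidence of a difference. *Loxl2*, also a lysyl oxidase, rose by 2.44 ± 0.17 (SE, adjusted p = 3.4e-07). *Pcolce*, which speeds removal of the procollagen C end, rose by 1.58 ± 0.13 (SE, adjusted p = 1.38e-06), and *Adamts2*, which removes the N end, by 2.21 ± 0.28 (SE, adjusted p = 3.14e-05). *Bmp1*, the C-end protease itself, was at -0.07 ± 0.07 (SE, adjusted p = 0.377) in that experiment and rose in HFCFD8W+T10D by 0.41 ± 0.10 (SE, adjusted p = 0.0141).

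Of 17 genes of chain folding and modification, 8 of 15 tested rose and 1 fell in HFCFD12W+T10W, 1 of 15 rose in HFCFD8W+T10D and 3 of 14 in HFCFD2W. The shares of all genes called higher in these experiments were 27.4%, 10.3% and 8.6%. *Serpinh1*, the collagen chaperone HSP47, rose by 1.59 ± 0.13 (SE, adjusted p = 1.17e-06) and *Plod2*, a lysyl hydroxylase of crosslink sites, by 2.19 ± 0.20 (SE, adjusted p = 3.06e-06), while the export factor *Mia3* (TANGO1) fell, at -0.48 ± 0.11 (SE, adjusted p = 0.00354). *P4ha1*, a prolyl hydroxylase, rose in HFCFD2W by 1.72 ± 0.23 (SE, adjusted p = 0.000288) and was at 0.45 ± 0.18 (SE, adjusted p = 0.0512) in HFCFD12W+T10W. *P3h2*, a prolyl 3-hydroxylase that prefers type IV collagen, rose in HFCFD2W by 1.49 ± 0.43 (SE, adjusted p = 0.0323) and in HFCFD12W+T10W by 1.34 ± 0.20 (SE, adjusted p = 9.99e-05).

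Of 8 collagen receptors, 6 of 6 tested rose in HFCFD12W+T10W, 1 of 5 in HFCFD8W+T10D and 1 of 5 in HFCFD2W, beside the same shares of all genes. A receptor tested through the knockout mice alone had to differ, so the 6 of 6 describes the tested genes only. *Itga11* had 3 counts or fewer in every fl/fl mouse of HFCFD12W+T10W and more in at least 1 knockout mouse. *Ddr1*, an epithelial collagen-binding kinase, was the 1 that rose in all 3, by 2.48 ± 0.44 (SE, adjusted p = 0.00219), 2.03 ± 0.26 (SE, adjusted p = 0.000303) and 3.32 ± 0.14 (SE, adjusted p = 8.32e-09) in order of experiment. Its relative *Ddr2*, found on mesenchymal cells, rose by 1.22 ± 0.12 (SE, adjusted p = 4.04e-06) in HFCFD12W+T10W and was at 0.26 ± 0.16 (SE, adjusted p = 0.311) in HFCFD8W+T10D. *Mrc2*, a receptor for uptake of collagen, rose by 2.37 ± 0.19 (SE, adjusted p = 9.4e-07).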

How the data were processed

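Whole-liver poly(A) RNA of 30 male mice was sequenced by the study with strand kept, 5 mice in each of 6 groups taken from the labels. Per the labels, reads were trimmed with Trimmomatic 0.36, aligned to mm10 with STAR 2.5.1 and quantified per gene with RSEM 1.2.22, with Picard 1.84 and DESeq2 also named. The expected counts, as deposited by the authors, were rounded to whole numbers here, since 11.3% of those above 0 were not whole. The TPM values deposited by the authors were used for levels between genes, shares and ratios. Deposited CPM and RPKM tables were not used.

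The members and gene lists were chosen with earlier results of these data known. Named in full were *Col1a1*, *Col1a2*, *Col3a1*, *Col4a1*, *Col4a2*, and the 2 chains of highest mean TPM among FACITs and among the others. Beside these, the 3 largest and 3 smallest fold changes per experiment were named. Chains named beyond this rule (*Col4a4*, *Col4a5*, *Col4a6*, *Col5a1*, *Col6a2*, *Col13a1* and the low chains) were chosen after their values were seen, to complete the account of the family. Genes outside the family came from the gene lists, with their roles given as background.

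Genotypes were compared within each experiment by edgeR 4.0.16 (R 4.3.3, limma 3.58.1), with TMM scaling, filterByExpr and the quasi-likelihood test on genotype alone. Differences between experiments came from 1 fit of all 30 mice with 6 groups. A gene passed at a Benjamini-Hochberg adjusted p under 0.05 over all genes tested. Total counts per library were 7996123 to 10257347, and 3 counts over a group were taken as the floor of detection. Intervals on counts cover counting error only. Labels name the replicates as biological, from separate mice. The series description speaks of 3 batches, which were read as the 3 experiments, since the labels give no batch per mouse. The fits were tested on simulated data. Alternatives were a fold over 2, no filter, upper quartile and total count scaling, DESeq2 1.42.0, a joint fit, a replicate block, ratios of CPM and leaving out each mouse. Promoter windows came from the RefSeq table of build GRCm38.p6.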

Additional observations from a re-analysis of the deposited data

Results flagged for a closer look

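Of 60 sets of 5 mice checked for a mouse apart from the others (9 chains and the collagen share in 6 groups), 1 held such a mouse: *Col4a2* in knockout replicate 4 of HFCFD2W measured 73.3 CPM, where the other 4 knockout mice lay between 56.7 and 60.7 CPM. Chance flags about 1 in 20 such sets. The mouse lay on the side of the genotype difference, and *Col4a2* passed without it.

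The knockout effect differed between experiments by a test of the difference itself (edgeR, 30 mice). Against HFCFD8W+T10D it was larger in HFCFD12W+T10W for 16 chains, by 2.19 on the log2 scale for *Col1a1*, 2.18 for *Col3a1*, 1.94 for *Col1a2*, 1.88 for *Col6a3*, 1.03 for *Col4a1* and 0.83 for *Col4a2*. Against HFCFD2W it was larger for 19 chains, by 3.16 for *Col3a1*, 2.98 for *Col1a1*, 2.80 for *Col1a2*, 2.07 for *Col6a3*, 1.96 for *Col5a3*, 1.22 for *Col16a1*, 1.05 for *Col4a2*, 1.00 for *Col4a1* and 0.94 for *Col14a1*. Between HFCFD8W+T10D and HFCFD2W it differed for 1 chain, *Col5a3*, by 1.08. *Col4a6* and *Col8a1*, counted in both the 16 and the 19, passed the low-count filter only with the HFCFD12W+T10W knockout mice. For some chains part of the larger effect against HFCFD8W+T10D lay in fl/fl mice, which were lower in HFCFD12W+T10W. The log2 differences between these fl/fl mice were -1.28 for *Col1a1*, -1.22 for *Col3a1*, -0.97 for *Col1a2* and -0.60 for *Col4a1*. Diet length, tamoxifen and, against HFCFD2W, Cre line differ between the experiments at the same time and cannot be told apart.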

How the results depend on the processing

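Leaving out 1 mouse at a time, the chains called in HFCFD2W stayed at 3 higher and 1 lower. The calls of HFCFD8W+T10D ranged from 3 to 11 higher with 0 lower, and those of HFCFD12W+T10W from 18 to 19 higher and 1 to 2 lower. The chains whose knockout effect was larger in HFCFD12W+T10W ranged from 15 to 17 against HFCFD8W+T10D and from 18 to 19 against HFCFD2W, with 0 to 1 smaller in either. Between HFCFD8W+T10D and HFCFD2W 0 to 2 were larger and 0 to 1 smaller. Between fl/fl groups, 12 to 13 chains were higher and 2 lower in HFCFD8W+T10D than in HFCFD2W, and 0 to 2 were higher and 3 to 7 lower in HFCFD12W+T10W than in HFCFD8W+T10D. Requiring a fold over 2 left 0 higher in HFCFD2W, 3 in HFCFD8W+T10D, and 0 lower in HFCFD12W+T10W. Upper quartile normalization left 1 lower in HFCFD12W+T10W. Scaling to total counts, an alternative chosen after seeing the data, left 0 lower there, put *Col18a1* at 0.072 on the log2 scale, and moved the median of all genes from 0.01 to 0.38. Under it 7049 genes were called higher and 962 lower in that experiment in place of 3411 and 2960. A joint fit of all mice gave 2 higher chains in HFCFD2W (without *Col5a2*), and 1 lower chain in HFCFD8W+T10D and 12 higher. With no low-count filter 0 chains differed between HFCFD8W+T10D and HFCFD2W, and 1 was higher in fl/fl mice of HFCFD12W+T10W than of HFCFD8W+T10D. DESeq2 kept each of these counts of chains within 1.5 times.

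Same-numbered mice did not deviate together (correlations from -0.327 to 0.216), so the replicate numbers were not shown to pair the mice. With so few mice the check cannot exclude a pairing. With replicate number as a block, 1 chain was higher in HFCFD2W and 0 differed between HFCFD8W+T10D and HFCFD2W. *Col1a1* lost its call in HFCFD8W+T10D with the block. Under that block the log2 fold changes in HFCFD2W of *Col18a1* (-0.052), *Col3a1* (-0.046) and *Col1a2* (-0.084) turned sign, none of them called.

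In HFCFD2W, where these genes were not called, the sign also turned without 1 mouse. *Col18a1* ranged from -0.023 to 0.059, *Col14a1* from -0.21 to 0.13, *Col1a2* from -0.052 to 0.34 and *Col16a1* from -0.0005 to 0.31. As ratios of CPM, the log2 difference of *Col1a2* to *Col1a1* in HFCFD2W was -0.38 and that of *Col3a1* to *Col1a1* in HFCFD12W+T10W was -0.24, neither past the threshold, and that of *Col4a2* to *Col4a1* in HFCFD12W+T10W was -0.0033. Leaving out 1 mouse, with 4 against 5 mice, the log2 difference of *Col1a2* to *Col1a1* ranged from -0.40 to -0.30 (HFCFD2W), -0.36 to -0.24 (HFCFD8W+T10D) and -0.74 to -0.54 (HFCFD12W+T10W). That of *Col3a1* to *Col1a1* ranged from -0.31 to -0.020, -0.28 to -0.04 and -0.57 to -0.43 in the same order. That of *Col4a2* to *Col4a1* ranged from -0.16 to 0.031, 0.01 to 0.43 and 0.20 to 0.45, and that of *Col6a2* to *Col6a1* from -0.052 to 0.091, 0.06 to 0.24 and 0.04 to 0.20. The cause of these changes was not tested. Depth limits the 17 chains that had counts and no test within an experiment (*Col6a6* entered the joint fit), for which 3 counts over a group correspond to 0.0522 to 0.0825 CPM.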
